A study of Homo sapiens with 15 samples.

Results

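TNFRSF9, CCL20, CXCL5, NFKB2 and BIRC3 are 5 genes of the NF-kB pathway and its chemokine output, and they were followed by name among the 296 genes of a quantitative RT-PCR panel. They stand for different positions in the pathway: a receptor (TNFRSF9), a pair of secreted chemokines (CCL20 and CXCL5), a subunit of the transcription factor (NFKB2) and an inhibitor of cell death (BIRC3). RNA was measured in A549 cells, a line from a human lung adenocarcinoma with features of alveolar epithelium, grown on membranes at the air-liquid interface (ALI) and exposed from above to dimethylamine vapour. The 15 samples formed 5 groups of 3. The low dose (LD) was 14.9 ppm, the mid dose (MD) 41.1 ppm and the high dose (HD) 81.7 ppm. Clean air controls (CA) received the exposure flow at 0 ppm, and the non-exposed controls (NEC) received no flow. Exposed and CA cultures had 3 cycles of 60 min under flow and 23 h of recovery, spread over 72 h, and each sample pooled 2 wells. By their sample labels the doses were on separate exposure plates, LD on plate 1, MD on plate 5 and HD on plate 6. Every plate label had 1 sample each of CA and NEC. The study describes fewer exposed cultures per plate than 3 samples of 2 pooled wells need. How the wells of a sample were spread over plates is not given, so plate here means the label. Among the exposed samples dose and plate cannot be told apart, except through the controls of each plate. All samples came from 1 cell line, so the values describe A549 cells without the leukocytes on which these chemokines act.

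NF-kB is a family of dimeric transcription factors that are held inactive in the cytoplasm and move to the nucleus after signals from cytokine receptors, microbial products or cell stress. In the canonical branch an inhibitor of the IkB family is degraded. In the non-canonical branch the kinase NIK, encoded by MAP3K14, leads to processing of the NFKB2 precursor p100 into p52, and BIRC3 belongs to the ubiquitin ligase complex that keeps NIK low in resting cells. In airway epithelium the pathway is known for the production of chemokines that draw leukocytes into the tissue.

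All 5 genes had a promoter window in the RefSeq table (GRCh38.p14). The 250 bases before the annotated start are printed because they show which members carry letters that NF-kB is known to bind. They were searched on both strands for the kB consensus (by its name), for its T-rich form (GGG, any 2 bases, TTTCC) and for the AP-1 motif TGANTCA. Capitals mark the matches. The windows are chr1:7940840-7941089 (minus strand) for TNFRSF9, chr2:227813592-227813841 (plus) for CCL20, chr4:73998678-73998927 (minus) for CXCL5, chr10:102394328-102394577 and chr10:102395455-102395704 (both plus) for NFKB2 and chr11:102317234-102317483 (plus) for BIRC3, each shown 5′ to 3′ on the gene's strand.
TNFRSF9: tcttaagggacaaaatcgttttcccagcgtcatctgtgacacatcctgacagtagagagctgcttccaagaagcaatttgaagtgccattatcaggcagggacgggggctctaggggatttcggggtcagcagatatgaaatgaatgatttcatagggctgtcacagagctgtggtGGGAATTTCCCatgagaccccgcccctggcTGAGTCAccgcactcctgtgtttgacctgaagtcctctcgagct
CCL20: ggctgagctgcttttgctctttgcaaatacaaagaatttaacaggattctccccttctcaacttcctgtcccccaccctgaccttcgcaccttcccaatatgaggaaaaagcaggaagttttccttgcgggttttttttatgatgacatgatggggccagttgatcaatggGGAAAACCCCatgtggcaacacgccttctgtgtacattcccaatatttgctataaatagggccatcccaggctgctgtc
CXCL5: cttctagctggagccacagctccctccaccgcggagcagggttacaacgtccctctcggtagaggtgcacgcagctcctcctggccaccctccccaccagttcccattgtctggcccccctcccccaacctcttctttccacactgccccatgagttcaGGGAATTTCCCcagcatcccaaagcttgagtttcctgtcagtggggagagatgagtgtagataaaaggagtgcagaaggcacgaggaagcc
NFKB2, upstream window: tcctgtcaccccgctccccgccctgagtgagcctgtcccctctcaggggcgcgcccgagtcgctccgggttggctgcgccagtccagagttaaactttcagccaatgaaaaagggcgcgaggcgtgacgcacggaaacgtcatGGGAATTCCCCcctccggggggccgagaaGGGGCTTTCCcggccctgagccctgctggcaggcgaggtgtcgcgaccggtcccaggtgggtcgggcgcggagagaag
NFKB2, downstream window: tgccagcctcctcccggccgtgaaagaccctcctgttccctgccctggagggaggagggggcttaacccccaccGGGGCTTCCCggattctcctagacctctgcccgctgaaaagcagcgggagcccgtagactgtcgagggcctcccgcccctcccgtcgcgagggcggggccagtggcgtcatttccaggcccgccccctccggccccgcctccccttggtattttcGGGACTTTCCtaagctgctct
BIRC3: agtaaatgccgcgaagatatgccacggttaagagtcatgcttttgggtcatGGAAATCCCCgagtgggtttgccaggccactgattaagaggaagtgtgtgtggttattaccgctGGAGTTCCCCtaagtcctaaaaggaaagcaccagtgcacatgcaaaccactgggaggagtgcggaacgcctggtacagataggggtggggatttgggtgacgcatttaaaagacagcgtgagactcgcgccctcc

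Of the 7 windows annotated for the 5 genes, 6 held a kB consensus or T-rich match, and the remaining one, a further NFKB2 window, held none of the 3 motifs. The kB consensus was present in 9.96% and the T-rich form in 1.73% of all 35116 windows of this length in the table. The T-rich form occurred in all 5 genes, against 2.12% of all genes in the table and 10 of the 233 panel genes with a window (4.29%). These 10 include the 5 members themselves, and NFKB2 had several windows in which to match. The members were chosen as NF-kB pathway and chemokine genes, so these shares give no independent support for that grouping. In the members the T-rich form overlapped a consensus match every time. TNFRSF9 and CXCL5 carried the same 11 bases, GGGAATTTCCC, which were found in 27 windows of the table (0.0769%). They started 74 bases before the start in TNFRSF9 and 91 bases before it in CXCL5. An AP-1 match was present only in TNFRSF9 among these windows, 44 to 38 bases before the start, against 6.57% of all windows and 39 of the 233 panel genes (16.7%). The kB consensus occurred in 38 of these panel genes (16.3%), the 5 members included. A match is a description of the letters, not evidence of a bound factor.

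Levels are given as the CT (threshold cycle) of the mean of GPN1 and TMEM184C, the authors' pair of normalisation genes, minus the CT of the gene, in log2 units. A higher value means more RNA, and 1 unit is about a doubling. Levels of different genes are not compared, because each assay has its own efficiency. In each sample, 283 to 287 of 297 assays gave a product. A gene measured by a pair of assays, ACTA2, gave a technical SD of 0.0938 cycles for a single assay, and the median SD between replicates over the panel was 0.166. The panel had been chosen largely from genes that the study had already found changed on the same RNA, so the share of called genes was high. Of 282 genes tested between HD and CA, 125 were called higher and 90 lower (limma, adjusted p under 0.05), with a panel median of 0.14. Without the normalisation genes the split was 73 higher and 100 lower, and the median was -0.17.

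TNFRSF9 (4-1BB or CD137, a receptor of the TNF receptor family best known as a co-stimulator of T cells) had the highest HD difference from CA of the 282 genes tested. Genes with fewer than 2 detected CA samples were not tested, among them IL1RL1, the receptor for IL33, with a product in 1 of 3 CA and 3 of 3 HD samples, and AMHR2, with a product in 0 of 3 CA and 3 of 3 HD samples. TNFRSF9 levels in NEC were -6.34, -7.31 and -6.85. In CA, replicate 1 gave no product, replicate 2 was at -10.01 with its CT of 35.8 set to 35 by the authors, and replicate 3 was at -8.11. CA was thus at the edge of detection. LD samples were at -8.37, -7.59 and -8.91. MD samples were at -10.27 (also capped, from a CT of 36.27), -6.90 and -6.76, and HD samples at -4.63, -4.68 and -3.69. All HD samples lay above all other samples, a separation not counted over the panel, whereas LD, MD and CA overlapped. HD exceeded CA by 4.73 ± 0.91 (SE, n = 3 and 2, adjusted p = 0.000519 by limma), a 26.5-fold difference with an interval from 2.75 to 6.70 on the log2 scale. With CA and NEC together as control the difference was 3.39. In pooled wells more RNA per cell and a larger share of cells that make it cannot be told apart.

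The MD difference of TNFRSF9 was 1.08 ± 0.91 (adjusted p = 0.303 by limma) and depended on MD replicate 1. Without that replicate it was 2.23 (adjusted p = 0.0105). NEC was 2.23 ± 0.91 above CA, the highest NEC difference among the 282 genes, but it did not pass the test (adjusted p = 0.249). HD exceeded MD by 3.64 ± 0.81 (adjusted p = 0.0105), but these groups lay on different plates, and with plate as a block the difference was 2.46 ± 1.29 and the call was lost (adjusted p = 0.293). The replicate SD of TNFRSF9 was 1.35 in CA (n = 2) and 1.99 in MD (n = 3), the largest of the 5 genes in these groups, whereas in NEC its SD of 0.488 was smaller than that of CCL20 (1.39) and NFKB2 (0.512).

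**Figure D1:**
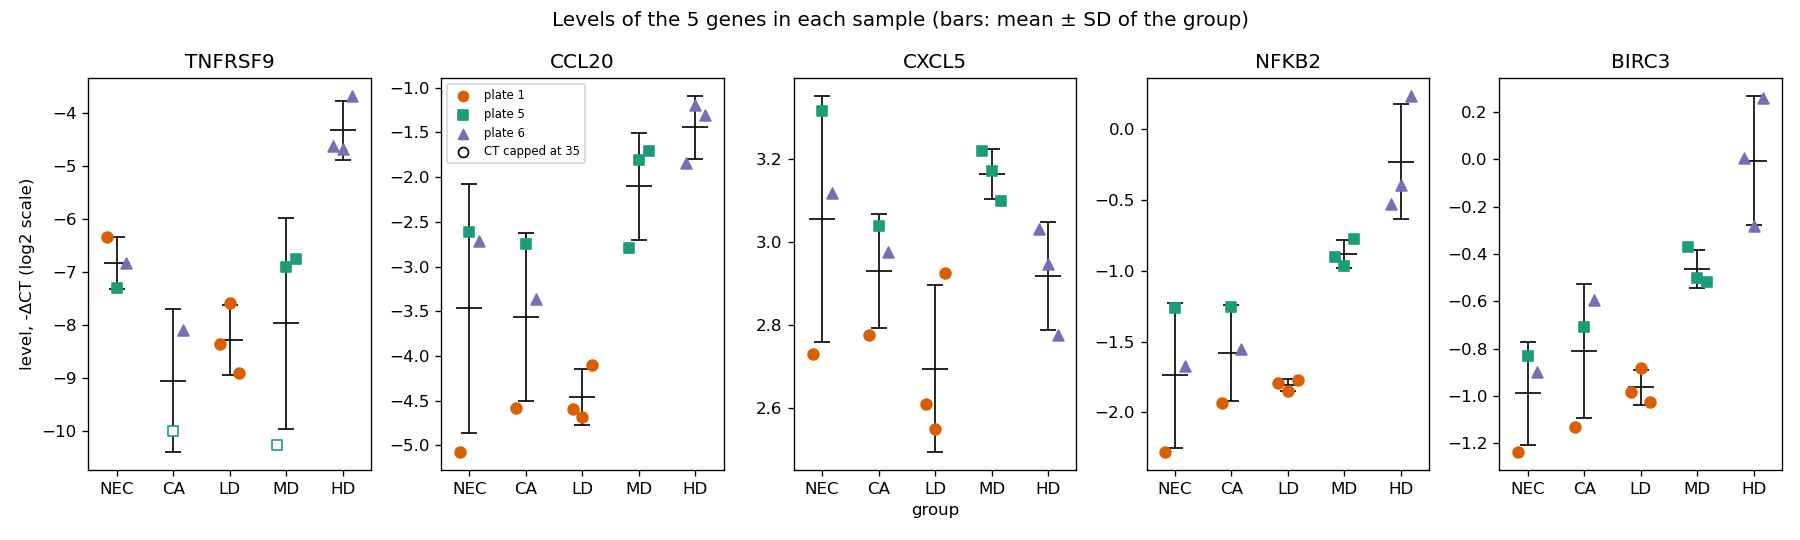
Level of each gene (y axis, -ΔCT on a log2 scale, with its own range per gene) in every sample of NEC, CA, LD, MD and HD (x axis), with black bars for the group mean ± SD (n = 3, n = 2 for TNFRSF9 in CA). Colours and shapes give the exposure plate and open symbols a CT capped at 35. The HD samples of TNFRSF9 sit between -4.68 and -3.69, and plate 1 samples of CCL20 sit at or below -4.10.

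CCL20 (MIP-3 alpha, the ligand of CCR6 that attracts immature dendritic cells and some lymphocytes) rose at MD and HD and was the member with the clearest plate pattern. NEC samples were at -5.08, -2.61 and -2.72, and CA samples at -4.58, -2.74 and -3.36, in the order of plates 1, 5 and 6. In both control groups the plate 1 sample was the lowest. LD samples, all from plate 1, were at -4.59, -4.69 and -4.10. MD samples were at -2.79, -1.81 and -1.71, and HD samples at -1.84, -1.19 and -1.30. All HD samples lay above all control samples, a separation not counted over the panel. MD replicate 1 lay within the range of the controls. HD was 2.12 ± 0.60 above CA (4.34-fold, adjusted p = 0.00555 by limma). MD was 1.46 ± 0.60 above CA (2.75-fold, adjusted p = 0.0478), a call close to the threshold that was kept in 15 of 29 alternatives. The MD difference was 0.95 without CA replicate 1 (adjusted p = 0.196) and 0.62 with plate as a block (adjusted p = 0.186).

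CXCL5 (ENA-78, a chemokine for neutrophils that signals through CXCR2) did not pass the test at any dose against CA. NEC samples were at 2.73, 3.32 and 3.12 and CA samples at 2.78, 3.04 and 2.98. LD samples were at 2.61, 2.55 and 2.93, MD samples at 3.22, 3.17 and 3.10 and HD samples at 3.03, 2.95 and 2.78. HD overlapped CA. The HD difference was -0.01 ± 0.15 (adjusted p = 0.94 by limma) with an interval from -0.34 to 0.31. The MD difference was 0.23 ± 0.15 (adjusted p = 0.186 by limma). MD was higher than LD by 0.47 ± 0.15 (adjusted p = 0.029), although with plate as a block this difference was 0.04. CXCL5 and TNFRSF9, whose windows share the 11 bases shown above, thus lay at ranks 157 and 1 of 282 in the order of signed HD differences.

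NFKB2 (the p100/p52 subunit) rose at MD and HD. NEC samples were at -2.28, -1.26 and -1.67, CA samples at -1.93, -1.26 and -1.55, and LD samples at -1.79, -1.85 and -1.77. LD lay within the range of the controls. MD samples were at -0.90, -0.97 and -0.78 and HD samples at -0.53, -0.40 and 0.23. These 2 groups overlapped neither each other nor any other group, but how many panel genes separated MD and HD was not counted. HD was 1.35 ± 0.25 above CA (2.55-fold, adjusted p = 0.000308 by limma) and MD 0.70 ± 0.25 above CA (1.62-fold, adjusted p = 0.0283). HD was 0.65 ± 0.25 above MD, which did not pass the test (adjusted p = 0.0777). The MD difference was 0.52 without CA replicate 1 (adjusted p = 0.113) and 0.30 with plate as a block (adjusted p = 0.239).

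BIRC3 (cIAP2, an inhibitor of apoptosis protein that ubiquitinates components of TNF receptor complexes) had the smallest rise of the 4 genes called at HD. NEC samples were at -1.24, -0.83 and -0.90, CA samples at -1.13, -0.71 and -0.59, and LD samples at -0.98, -0.88 and -1.02. MD samples were at -0.37, -0.50 and -0.52 and HD samples at 0.01, -0.28 and 0.26. Every MD sample was above every CA sample, and every HD sample was above every MD sample, a separation not counted over the panel for HD and MD. HD was 0.80 ± 0.17 above CA (1.75-fold, adjusted p = 0.000669 by limma). Without the normalisation genes it was 0.49 ± 0.22 and no longer passed (adjusted p = 0.0582). MD was 0.35 ± 0.17 above CA (adjusted p = 0.081).

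Over the 5 genes, 4 were called higher at HD than in CA, where 44.3% of the genes tested were called higher. TNFRSF9 ranked 1, CCL20 7, NFKB2 30, BIRC3 85 and CXCL5 157 when the 282 genes were ordered from the highest to the lowest signed difference. In the same 4 genes every detected HD sample lay above every detected CA sample, as in 45% of the genes tested. At MD, 2 of the 5 were called higher (36.2% of the genes tested), and CCL20 had rank 3 in the same order of signed differences. In CXCL5, NFKB2 and BIRC3 every MD sample lay above every CA sample, as in 43.3% of the genes tested. The members' shares at HD and MD thus have to be read against a panel in which such calls were common.

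**Figure D2:**
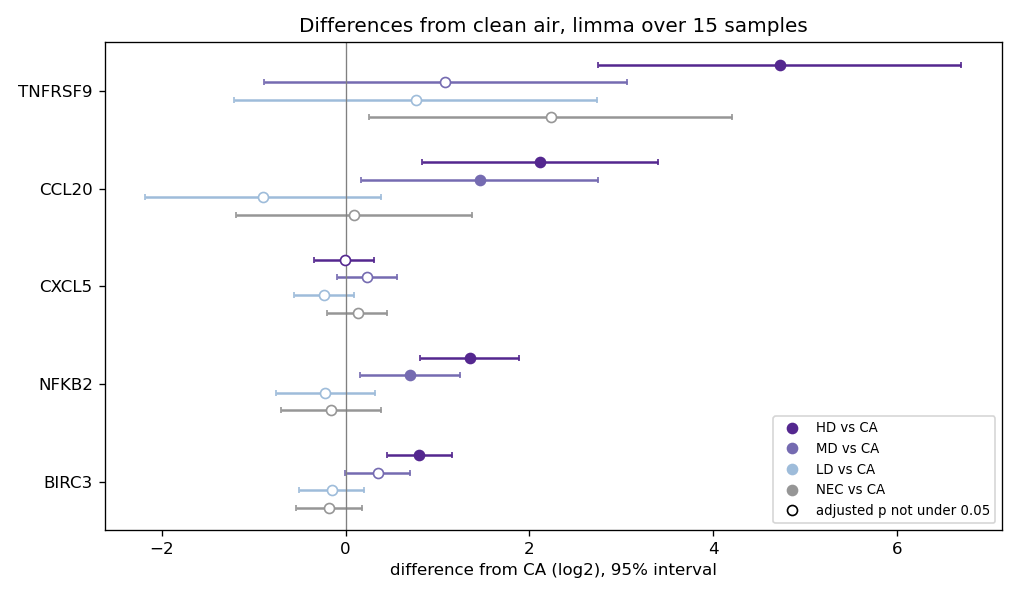
Difference of HD, MD, LD and NEC from CA (x axis, log2) for each of the 5 genes (y axis) with 95% intervals from limma over 15 samples. Filled points passed an adjusted p of 0.05. The 4 filled HD points run from 0.80 (BIRC3) to 4.73 (TNFRSF9), while CXCL5 is at -0.01.

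No member was called at LD or in NEC against CA by limma, in either direction. At LD, 4.26% of the genes tested were called higher and 7.45% lower. The LD differences were 0.77 ± 0.91 for TNFRSF9, -0.90 ± 0.60 for CCL20, -0.23 ± 0.15 for CXCL5, -0.22 ± 0.25 for NFKB2 and -0.15 ± 0.17 for BIRC3. None of the 5 had an unadjusted p under 0.05 at LD, against 82 of 282 genes. The interval for CCL20 at LD reached from -2.18 to 0.39 and for NFKB2 from -0.76 to 0.32. In NEC against CA, 0% of the genes tested were called higher and 1.06% lower, and 1 member (TNFRSF9) and 46 of 282 genes had an unadjusted p under 0.05. The ordinary linear model and the robust form of limma also called 0 members in both comparisons.

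Between doses, TNFRSF9 alone was called higher at HD than at MD, where 12.3% of the genes tested were, and with plate as a block 0 members were. CCL20 (0.66 ± 0.60), NFKB2 (0.65 ± 0.25) and BIRC3 (0.46 ± 0.17) were also higher at HD in value but did not pass. From LD to HD, 4 members were called higher (39% of the genes tested), with 3.96 ± 0.81 for TNFRSF9, 3.01 ± 0.60 for CCL20, 1.57 ± 0.25 for NFKB2 and 0.96 ± 0.17 for BIRC3. From LD to MD, CCL20 (2.36 ± 0.60), CXCL5, NFKB2 (0.92 ± 0.25) and BIRC3 (0.50 ± 0.17) were called higher, against 24.1% of the genes tested. These comparisons set plate 1 against other plates. With plate as a block, the LD to MD differences of these 4 genes were 0.20, 0.04, 0.08 and 0.08, and none was called. From LD to HD, TNFRSF9 was then at 4.11 ± 1.56 (adjusted p = 0.0638), as large as without the block but with a larger error. CCL20 was at 1.22 ± 0.49 (adjusted p = 0.0699) and BIRC3 at 0.52 ± 0.20 (adjusted p = 0.0649), both smaller than without the block. NFKB2 alone was called, at 1.08 ± 0.27 (adjusted p = 0.0132).

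The slope of each gene on concentration used all samples but those of NEC. It was 0.571 ± 0.109 log2 units per 10 ppm for TNFRSF9 (n = 11, adjusted p = 0.000498 by limma) and 0.331 ± 0.0693 for CCL20 (n = 12, adjusted p = 0.000761 by limma). It was 0.189 ± 0.0278 for NFKB2 (adjusted p = 6.56e-05) and 0.113 ± 0.0205 for BIRC3 (adjusted p = 0.000292). These 4 members were called as rising, as were 42.6% of the genes tested. The slope of CXCL5 was 0.0145 ± 0.02 with an interval from -0.0288 to 0.0577. With plate as a block the slopes were 0.468, 0.215, 0.146 and 0.0706 for TNFRSF9, CCL20, NFKB2 and BIRC3, and all 4 still passed. These blocked slopes rest on 1 CA sample per plate. For TNFRSF9 the plate 1 CA sample gave no product, so LD added nothing to its blocked slope, and the plate 5 CA well was capped.

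The 6 control samples gave a measure of the plates. In a fit with group and plate, CCL20 was 1.97 ± 0.33 log2 units lower on plate 1 than on plates 5 and 6 (3.92-fold, adjusted p = 0.00334 by limma), the lowest value of the 282 genes. NFKB2 was also called lower on plate 1, by 0.67 ± 0.18 (adjusted p = 0.0289). This made 2 of the 5 members, against 9.57% of the genes tested. BIRC3 (-0.43 ± 0.14, adjusted p = 0.0585), CXCL5 (-0.36 ± 0.13, adjusted p = 0.0813) and TNFRSF9 (0.74 ± 1.23) did not pass. In CCL20, CXCL5, NFKB2 and BIRC3 both plate 1 controls lay below all 4 other controls, as in 70 of 274 genes detected in every sample (25.5%). The plate difference of CCL20 between the controls was of the size of its HD difference from CA.

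Within a plate, the exposed samples were set against the CA sample of the same plate, which leaves no test because each plate held 1 CA sample. CCL20 was 0.12 above CA at LD, 0.64 at MD and 1.91 at HD. NFKB2 was 0.13, 0.38 and 1.32 above CA, and BIRC3 0.17, 0.24 and 0.59. In all 3 genes this difference was smallest at LD and largest at HD, an order not counted over the panel. Against the NEC sample of the same plate CCL20 was 0.62 higher at LD, 0.51 at MD and 1.27 at HD, and NFKB2 was 0.48, 0.38 and 1.44 higher, so in these genes LD was not below MD. BIRC3 was 0.28, 0.37 and 0.89 above NEC. TNFRSF9 was 3.77 above CA and 2.51 above NEC at HD, but it was 1.95 below NEC at LD and 0.66 below NEC at MD. CXCL5 stayed between -0.20 and 0.13 in all within-plate differences of means.

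**Figure D3:**
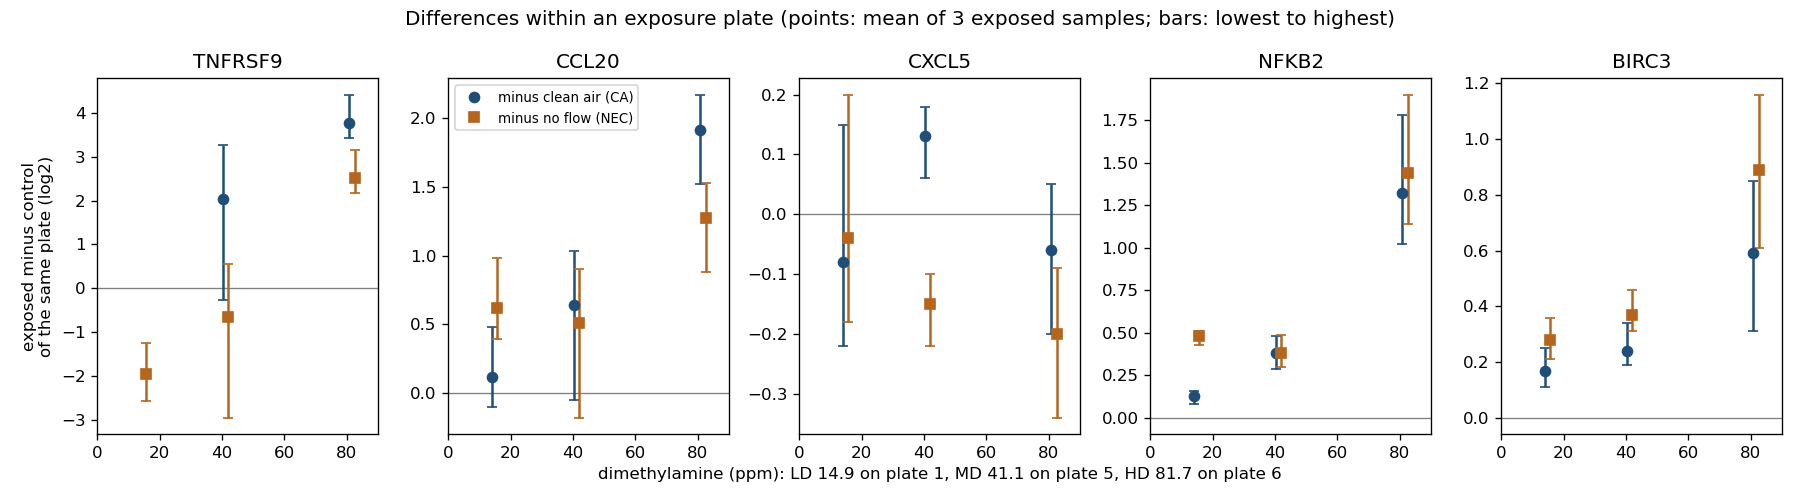
Exposed samples minus the CA (blue circles) or NEC (brown squares) sample of the same plate (y axis, log2, own range per gene) against the concentration of dimethylamine (x axis, ppm). Points are means of 3 exposed samples and bars run from the lowest to the highest sample. CCL20 minus CA runs from 0.12 at LD to 1.91 at HD, and the means of CXCL5 remain within 0.20 of 0, while its lowest single sample is at -0.34.

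The 4 HD calls were kept with plate as a block and with plate 1 left out. All HD samples were on plate 6, where the block rests on 1 CA and 1 NEC sample. Leaving out plate 1 does not separate HD from plate 6. With plate as a block the HD differences were 4.13 for TNFRSF9, 1.64 for CCL20, 1.30 for NFKB2 and 0.65 for BIRC3, all past the threshold. With all plate 1 samples left out they were 1.61 for CCL20, 1.17 for NFKB2 and 0.64 for BIRC3, all past the threshold. For TNFRSF9 the value of 4.73 could not change, because the plate 1 CA sample had given no product. The MD difference of NFKB2 was 0.52 without plate 1 (adjusted p = 0.0781) and that of CCL20 0.95 (adjusted p = 0.0382).

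Of a list of 55 NF-kB pathway genes, 8 were on the panel, and 3 of them were TNFRSF9, NFKB2 and BIRC3. The other 5 were TNFRSF12A (the TWEAK receptor Fn14), NFKBIZ (the nuclear regulator IkB zeta), MAP3K14 (NIK, the kinase of the non-canonical branch), CFB (complement factor B) and IL33 (an alarmin of the IL-1 family). Of the 8 genes, 5 were called higher and 2 lower at HD against CA, with a median difference of 0.91 against 0.14 over all genes tested. All 3 members were among those called higher. Without them the middle value of the pathway genes was that of MAP3K14, at 0.17. Over all genes tested, 44.3% were called higher and 31.9% lower. TNFRSF12A rose by 1.43 ± 0.22 (adjusted p = 7.52e-05 by limma) and NFKBIZ by 1.01 ± 0.20 (adjusted p = 0.000574). CFB fell by 0.74 ± 0.12 (adjusted p = 0.000138) and IL33 fell by 1.00 ± 0.22 (adjusted p = 0.000929). MAP3K14 was at 0.17 ± 0.19 (adjusted p = 0.425). Genes of both directions were thus present among the 8, as over the whole panel.

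At MD, 3 of the 8 pathway genes were called higher (NFKB2, NFKBIZ and TNFRSF12A) and 2 lower (CFB and IL33), with a median of 0.52 against 0.17 over all genes tested. These counts were close to the shares over all genes tested, 36.2% higher and 25.9% lower. Without the 3 members the middle value of the pathway genes was that of MAP3K14, at -0.08. NFKBIZ was at 0.85 ± 0.20 (adjusted p = 0.00417 by limma) and TNFRSF12A at 0.81 ± 0.22 (adjusted p = 0.00741). At LD and in NEC, 0 of the 8 were called by limma. TNFRSF12A was lower on plate 1, by -0.71 ± 0.13 (adjusted p = 0.00396), like CCL20 and NFKB2, whereas CFB (-0.02 ± 0.14) and IL33 (0.10 ± 0.24) did not pass. Of a second list of 40 chemokines, cytokines and their receptors, CCL20 and CXCL5 were the 2 genes on the panel.

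**Figure D4:**
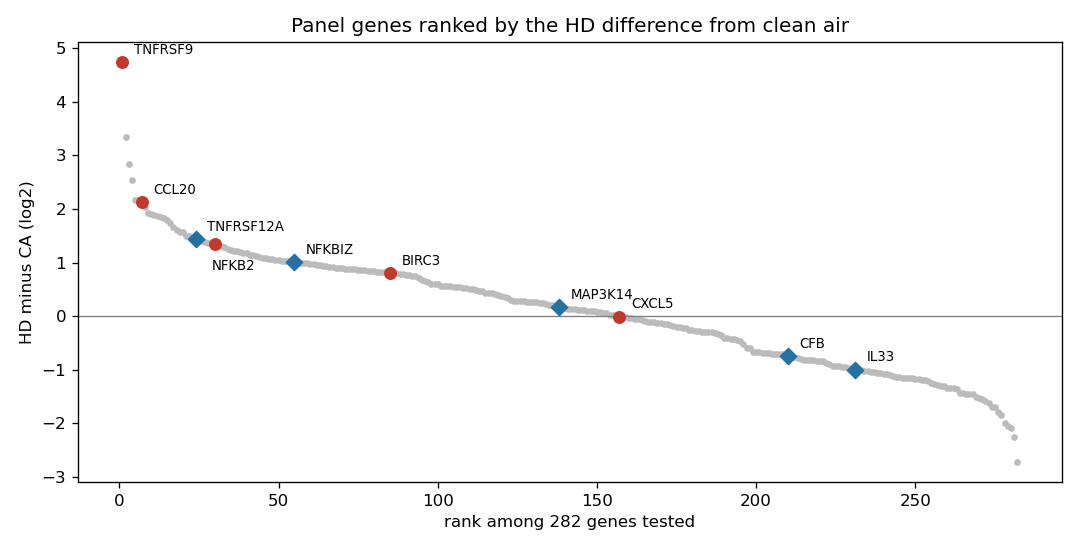
The 282 genes tested, ordered by their HD difference from CA (x axis, rank; y axis, log2). Red circles are the 5 genes described here and blue diamonds the other 5 pathway genes. TNFRSF9 is at 4.73, CXCL5 at -0.01 and CFB at -0.74.

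The cultures were of A549 cells, and markers of epithelium and of other cell types were few on the panel. Of 11 epithelial markers, CDH1, KRT18, KRT80 and CLDN2 were measured, and all 4 gave a product in all 15 samples, with KRT18 at a mean CT between 19.0 and 19.6 in every group. At HD CDH1 fell by 0.87 ± 0.11 and CLDN2 by 1.03 ± 0.10, while KRT80 was 0.83 ± 0.14 higher (limma, all called). Of 10 leukocyte markers only CD79A (a component of the B cell receptor) was measured. It was called higher at LD by 0.57 ± 0.15, at MD by 1.24 ± 0.15 and at HD by 1.20 ± 0.15, with a product in all 15 samples, and its part in the values of the 5 genes was not tested. None of 8 fibroblast and 6 endothelial markers were on the panel.

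The panel genes whose levels followed each member most closely were named by Pearson's r across samples, as a description. The points share plates, normalisation genes and dose groups, and many panel genes rose with dose. For NFKB2 these were KLF6 (r = 0.977), TNFRSF12A (0.971) and GADD45A (0.957), followed by BIRC3 (0.956), over 15 samples. For BIRC3 they were TNFRSF12A (r = 0.964), NFKB2 (0.956) and TFPI2 (0.931). NFKB2 and BIRC3 were thus near neighbours of each other and of TNFRSF12A. For CCL20 they were GDF15 (r = 0.954), DUSP6 (0.945) and TFPI2 (0.940), and NFKB2 had r = 0.912 with it, rank 6. In the order for NFKB2, CCL20 had rank 21. For TNFRSF9 they were ZNF555 (r = 0.877), PLA2G4C (0.830) and BEX2 (0.820) over 14 samples, and NFKB2 had r = 0.546 with it, rank 40. For CXCL5 the highest were MPHOSPH10 (r = 0.722), SEC13 (0.669) and GDF15 (0.606), followed closely by CCL20 (0.597, rank 5), while its r was 0.335 with NFKB2 and 0.254 with BIRC3.

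The order of the group means differed between members. For NFKB2 it was HD, MD, CA, NEC and LD, and for BIRC3 HD, MD, CA, LD and NEC. In both genes HD, MD and CA did not overlap, while neighbours among the 3 lowest groups did. MD lay above CA in this way in 43.3% of the genes tested, and for HD above MD no share over the panel was counted. For CCL20 it was HD, MD, NEC, CA and LD, with every neighbouring pair overlapping. For TNFRSF9 it was HD, NEC, MD, LD and CA, and only HD was apart from its neighbour, which was also not counted over the panel. For CXCL5 it was MD, NEC, CA, HD and LD, and all neighbouring pairs overlapped.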

How the data were processed

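Per the study's methods, RNA of 15 A549 samples was reverse transcribed and run on customised RT2 profiler PCR arrays, with 1 threshold cycle (CT) per well. The first matrix deposited by the authors holds these cycles, with nd where no product was found. The second holds the authors' ΔCT on a log2 scale, each CT less the average of 2 normalisation genes in that sample, which were identified as GPN1 and TMEM184C by testing 38226 pairs (largest difference 8.6e-09 cycles). In it the authors had set 10 wells with CT above 35 to 35 and filled 25 nd wells. The authors' table of fold changes over CA, a ratio per group, was not used. All sample columns were mapped, and 0 columns were left unassigned.

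The sign of ΔCT was turned and nd wells were treated as missing. limma 3.58.1 (R 4.3.3; lmFit, eBayes) was fitted over all 15 samples with 1 mean per group, after a test on simulated data. Genes with at least 2 detected samples in both groups were tested, without the normalisation genes. Tests were two-sided, with Benjamini-Hochberg adjustment over all genes tested (threshold 0.05), and errors are SE with 95% intervals. The methods name a linear model with CA as reference, of which limma is the moderated form. Of 297 assays, 280 matched a RefSeq accession in the GRCh38.p14 table. The 233 panel genes with a promoter window were matched by symbol. Figures were drawn with matplotlib 3.10.9 (Python 3.11.15).

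Named genes are the 5 members, the genes of 2 pathway lists and of marker lists that were on the panel, the 3 panel genes with the highest r to each member, and the normalisation genes. Members, lists and tests were chosen with earlier results of these data known. Alternatives were other normalisers, other treatments of nd and capped wells, plate or replicate blocks, other fits, other controls and leaving out each sample. The plate 1 contrast and the removal of plate 1 were added after seeing the data. An array gives no read depth, so the precision is limited by 3 samples a group and, for TNFRSF9, by CTs near 35. The 3 samples of a dose shared a plate label, so p-values measure the spread between samples and, only through the controls, between plates. The authors' replicates are described as biological, each from 2 pooled wells.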

Additional observations from a re-analysis of the deposited data

How the results depend on the processing

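At HD against CA, TNFRSF9, CCL20 and NFKB2 kept their direction and call in every alternative that gave a value, with ranges of 3.39 to 5.13 (26 alternatives), 1.61 to 2.53 (29) and 1.04 to 1.51 (29), and CXCL5 was not called in any (-0.32 to 0.06). BIRC3 ranged from 0.49 to 0.94 and lost its call only without the normalisation genes (0.49, adjusted p = 0.0582). Leaving out 1 sample gave 4.40 to 4.90, 1.61 to 2.53, -0.09 to 0.06, 1.12 to 1.51 and 0.64 to 0.94 for TNFRSF9, CCL20, CXCL5, NFKB2 and BIRC3. TNFRSF9 had no value without CA replicate 2 or 3, or among genes detected in all samples, because under 2 CA samples were then detected or the gene dropped out.

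The counts of members called higher moved more. For MD against CA the count was 2, but 0 with GPN1 alone or with plate as a block, and 1 with nd wells at CT 35, in the ordinary linear model and with plate 1 left out, 3 with TMEM184C alone or with CA and NEC together as control (BIRC3 added), and 0 to 2 on leaving out 1 sample (0 without CA replicate 1 or MD replicate 3). For HD against MD it was 1, but 3 with TMEM184C alone, with the mean of the panel as normaliser and with plate 1 left out, 0 with plate as a block or among genes detected in all samples, and 1 to 3 on leaving out 1 sample (3 without NEC replicate 1, 2 without CA replicate 1 or HD replicate 2). For HD against LD it was 4, but 1 with plate as a block. For MD against LD it was 4, but 2 with GPN1 alone, without normalisation genes and with the mean of the panel, 0 with plate as a block, and 1 to 4 on leaving out 1 sample (1 without MD replicate 3). For HD against CA it was 4 and ran from 3 to 4 on leaving out 1 sample (3 without CA replicate 2 or 3, where TNFRSF9 was not tested). Apart from that, the cause of these moves was not tested. MD replicate 3 is the sample that the study removed from its sequencing data as an outlier, and it was kept here.

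Replicate numbers of LD, MD and HD did not pair the samples (r of deviations from -0.148 to 0.255). With the number as a replicate block, 2 members were called from MD to HD in place of 1, NFKB2 being added at 0.65 (adjusted p = 0.0336). CA and NEC of the same plate deviated together (r = 0.717, 0.387 and 0.392). Over the panel, genes called higher numbered 125 at HD (73 to 131 over the alternatives), 102 at MD (64 to 116), 12 at LD (2 to 30), 0 in NEC (0 to 3), 35 for HD against MD (11 to 46), 110 for HD against LD (51 to 133) and 68 for MD against LD (0 to 85). Genes called lower numbered 90 at HD (82 to 100), 73 at MD (50 to 85), 21 at LD (0 to 51) and 3 in NEC (1 to 8). In no alternative did a called difference turn its sign, and in 21 cases a difference that passed on neither side did. TNFRSF9 is the gene most limited by signal, with 1 undetected and 2 capped wells.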
